A study of Mus musculus with 24 samples.

Results

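The comparison described here is RAW264.7 cells of the line labelled Tbc1d23 after 5 h of LPS against the same line at 0 h, and the genes that still changed in it. Its members are 6 of the series' 24 arrays, chosen by their labels: 3 at 5 h and 3 at 0 h, paired by replicate number, since each replicate's 4 times share a slide. RAW264.7 is a mouse macrophage-like cell line, and LPS (lipopolysaccharide of Gram-negative bacteria) was given at 20 ng/ml. The groups compared in the Tbc1d23 line are 5, 3 and 1 h of LPS and 0 h. In the CAT line they are 5 h and 0 h, and each group holds 3 one-colour Agilent arrays. The CAT arrays at 1 and 3 h enter the choice of genes tested. They also enter the fit of all 24 arrays, which gives the CAT changes and the response differences. CAT is chloramphenicol acetyltransferase, a bacterial enzyme carried as the control construct. Their labels call the lines overexpression lines, of Tbc1d23 and of CAT. Both were kept in medium with G418, which selects for the construct, and there was 1 line for each. The promoter that drives the construct and the part of Tbc1d23 it carries are not given in the sources used here.

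LPS is recognised by TLR4 with its co-receptors CD14 and MD-2. One arm of the receptor signals through MyD88 to NF-kB and the MAP kinases and raises cytokines, chemokines and immediate early genes within the first hour. The other arm signals through TRIF to IRF3 and interferon beta, whose receptor then raises interferon-stimulated genes. Macrophages also switch on proteins that end the response, such as the inhibitors of NF-kB and the RNA-degrading proteins. Tbc1d23 encodes a TBC-domain protein, and such proteins act on the Rab GTPases that direct vesicle traffic.

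A level below is the 60-base probe's log2 signal minus the log2 of the array's 75th percentile, so that 0 is the 75th percentile and 1 unit is a doubling. Levels are compared within a probe only. The probes of 5 genes on which the results turn are shown as the scanner files give them, 5′ to 3′ (mm9): Tbc1d23 itself, Acod1 as the largest rise, Tnf as an early cytokine, Ifit1 as an interferon-stimulated gene and Klhl30 as the largest fall. They lie at chr16:57169122-57169181 (minus strand), chr14:103452185-103452245 (plus), chr17:35336795-35336854 (minus), chr19:34723796-34723855 (plus) and chr1:93258755-93258814 (plus). No annotation of that build was used, so their place in the exons is not given.
Tbc1d23: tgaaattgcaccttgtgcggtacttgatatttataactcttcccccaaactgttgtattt
Acod1: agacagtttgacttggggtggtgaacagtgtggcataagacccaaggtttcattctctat
Tnf: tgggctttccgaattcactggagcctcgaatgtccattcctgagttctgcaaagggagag
Ifit1: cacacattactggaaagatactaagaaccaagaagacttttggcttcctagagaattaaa
Klhl30: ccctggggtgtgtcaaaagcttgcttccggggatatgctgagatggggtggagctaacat

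The promoter windows of 4 genes are shown from RefSeq (GRCm38.p6), because these genes stand for large rises in the Tbc1d23 line (Acod1 and Cxcl10) and for interferon-stimulated genes whose rise was far smaller than in the CAT line (Ifit1 and Isg15). Each window runs from 250 bases before to 50 bases after the annotated start, on the gene's strand. Capitals mark every match, on either strand, to a loose form of the NF-kB site (GGG, then any 5 bases, then CC) or of the interferon-stimulated response element (GAAA, then any 2 bases, then GAAA again). The windows lie at chr14:103046762-103047061 (plus strand), chr5:92348840-92349139 (minus), chr19:34640639-34640938 (plus) and chr4:156200769-156201068 (minus).
Acod1: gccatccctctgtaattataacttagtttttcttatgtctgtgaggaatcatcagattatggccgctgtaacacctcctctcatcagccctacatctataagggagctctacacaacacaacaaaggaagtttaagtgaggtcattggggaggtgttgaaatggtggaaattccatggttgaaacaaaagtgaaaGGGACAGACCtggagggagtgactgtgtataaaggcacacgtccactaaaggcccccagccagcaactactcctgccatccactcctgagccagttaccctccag
Cxcl10: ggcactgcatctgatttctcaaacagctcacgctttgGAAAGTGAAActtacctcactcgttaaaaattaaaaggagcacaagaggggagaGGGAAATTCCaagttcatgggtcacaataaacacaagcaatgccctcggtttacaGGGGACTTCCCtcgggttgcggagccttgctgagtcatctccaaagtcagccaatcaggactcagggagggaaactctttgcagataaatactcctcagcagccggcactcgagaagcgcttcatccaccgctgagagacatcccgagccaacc
Ifit1: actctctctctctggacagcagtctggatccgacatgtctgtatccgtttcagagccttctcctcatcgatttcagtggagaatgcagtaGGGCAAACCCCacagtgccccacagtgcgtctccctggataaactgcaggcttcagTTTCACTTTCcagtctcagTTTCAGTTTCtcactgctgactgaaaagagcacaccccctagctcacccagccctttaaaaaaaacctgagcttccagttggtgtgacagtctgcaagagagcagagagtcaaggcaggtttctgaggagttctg
Isg15: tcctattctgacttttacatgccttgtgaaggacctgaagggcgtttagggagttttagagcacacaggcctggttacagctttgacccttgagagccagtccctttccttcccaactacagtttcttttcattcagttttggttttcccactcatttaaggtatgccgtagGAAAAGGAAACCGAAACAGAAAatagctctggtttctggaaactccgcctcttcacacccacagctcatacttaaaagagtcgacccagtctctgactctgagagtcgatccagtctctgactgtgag

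The Acod1 window held 1 match of the NF-kB form, 55 bases before the start. Cxcl10 held the NF-kB form at 3 positions, the nearest 103 bases before the start and overlapping its neighbour, and the interferon form at 1, which began 213 bases before the start. Ifit1 held each form at 2 positions, the NF-kB matches overlapping. Isg15 held the interferon form at 3 overlapping positions, the farthest 78 bases before the start. The NF-kB form is common: it stood in 50.8% of all 32851 promoter windows, and 53.5% of 27025 genes had it in any of their windows. Among genes with a window it stood in 8 of 10 of the largest rises, 7 of 12 of the largest falls and 5 of the 8 matched genes named below for the response most below that of the CAT line. The interferon form stood in 3.44% of all windows and for 3.99% of those 27025 genes, in 4 of those 8 genes, in 1 of the 10 rises and in 0 of the 12 falls. These are letter matches in 1 short window, not sites shown to be bound.

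Tbc1d23 was measured first, as the gene of the construct. Its brightest probe stood at 2.93, 2.82 and 3.49 in the Tbc1d23 line at 5 h, against 3.00, 3.15 and 3.50 at 0 h. In the CAT line it stood at 3.21, 3.39 and 3.20 at 5 h and 2.90, 3.38 and 3.29 at 0 h. The ranges of both lines overlapped at each time, and the 5 h minus 0 h difference in the Tbc1d23 line was -0.14 ± 0.07 (limma, adjusted p = 0.199). With median scaling in place of the 75th percentile that difference was 0.12 on the log2 scale, also not called. This probe therefore shows no higher Tbc1d23 transcript in the line labelled Tbc1d23, and if it lies outside the construct it checks nothing. A dimmer probe for it stood at -0.18, -0.16 and -0.41 at 5 h, against -0.31, -0.29 and -0.44 at 0 h, also overlapping.

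On the 6 arrays 52.4 to 62.0% of probes at 5 h, against 42.1 to 69.5% at 0 h, were well above background by the scanner software, and no spot was saturated. The 15298 gene names tested are those with a probe detected, that is well above background, in every replicate of 1 or more of the series' 8 groups. On every slide the 0 h array is in the first position and the 5 h array in the last, so time and position cannot be told apart. Slides of replicates 1 and 2 belong to another serial run than that of replicate 3 and all CAT slides, and each pair lies within 1 slide. Macrophage markers were plentiful: Lyz2, Cd68 and Tyrobp were well above background on all 6 arrays, and 24 of 26 listed markers were tested. Mertk and Cd163 were not tested, and C1qa, C1qc and Mrc1 were not well above background on any of the 6.

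LPS for 5 h still changed many transcripts in the Tbc1d23 line, mostly by little. The rises were led by itaconate synthesis, chemokines, NF-kB proteins and costimulatory molecules. The falls were led by genes of no single group, with a small shared decrease of DNA replication genes. Of 15298 genes, 3038 (19.9%) were called at an adjusted p under 0.05 by limma with the slide as a block. Of these 1387 (9.07%) were higher and 1651 (10.8%) lower at 5 h, and 3031 moved the same way in all 3 pairs, as did 48.1% of all genes tested. The median size among the called was a log2 of 0.41, and 356 (2.33%) were called and changed at least 2-fold, 229 higher and 127 lower. Without the slide as a block 681 were called, and with median scaling in place of the 75th percentile 554 were, 472 higher and 82 lower. That scaling moved the median difference of all genes to 0.23, against -0.03 with the 75th percentile. In bulk RNA, fewer cells that express a gene and less of its RNA per cell cannot be told apart.

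The largest rise among genes above background on all 6 arrays was that of Acod1, the enzyme that makes itaconate from aconitate. It stood at 7.83, 7.90 and 6.97 at 5 h, against 2.91, 2.85 and 2.28 at 0 h, and every 5 h array lay over 4 units above every 0 h array. The difference was 4.89 ± 0.10 (29.7-fold, limma, adjusted p = 3.4e-07). Cxcl10, a chemokine for T cells, stood at 4.25, 4.42 and 4.03 at 5 h, against 0.16, 0.48 and 0.24 at 0 h (3.94 ± 0.08, 15.4-fold). Gpr84, a receptor for medium-chain fatty acids, stood at 2.65, 2.89 and 2.77 at 5 h, against -0.69, -0.55 and -0.66 at 0 h (3.41 ± 0.07). Replicates of each lay within a narrow band and the groups lay well apart. Icosl, the ligand of the T cell costimulator ICOS, stood at 3.19, 3.28 and 3.16 at 5 h, against -0.18, -0.10 and -0.26 at 0 h (3.39 ± 0.11). C3, the central complement component, stood at 3.33, 3.46 and 3.65 at 5 h, against -0.04, 0.12 and 0.27 at 0 h (3.36 ± 0.07). Both groups were again clearly separate for Icosl and C3.

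The other 10 of the 15 largest rises lay between 2.53 and 3.05 on the log2 scale. They were Traf1, an adaptor of TNF receptors, Hcar2, a receptor for beta-hydroxybutyrate and niacin, the lymphatic growth factor Vegfc and the protein crosslinking enzyme Tgm2. They also held the sialyltransferase St3gal1, the fatty acid binding protein Fabp4, the ribonuclease Zc3h12a (Regnase-1), the cAMP phosphodiesterase Pde4b, the NF-kB subunit Relb and the IkB family protein Bcl3. Hcar2 had uneven arrays at 0 h (-1.88, -2.94 and -2.78, against 0.44, 0.83 and 0.15 at 5 h). Zc3h12a was lowest in replicate 3 at both times (0.86, 0.78 and -0.84 at 5 h, against -1.57, -2.0 and -3.61 at 0 h). The 5 h and 0 h arrays did not overlap for any of the 15, which the choice of genes largely fixes. Tgm2 is less certain: with the mean of its probes the difference was 0.69 and not called (limma, adjusted p = 0.139). Of the 15, 12 had their highest mean at 3 h, and Vegfc, Tgm2 and Fabp4 had theirs at 5 h.

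**Figure D1:**
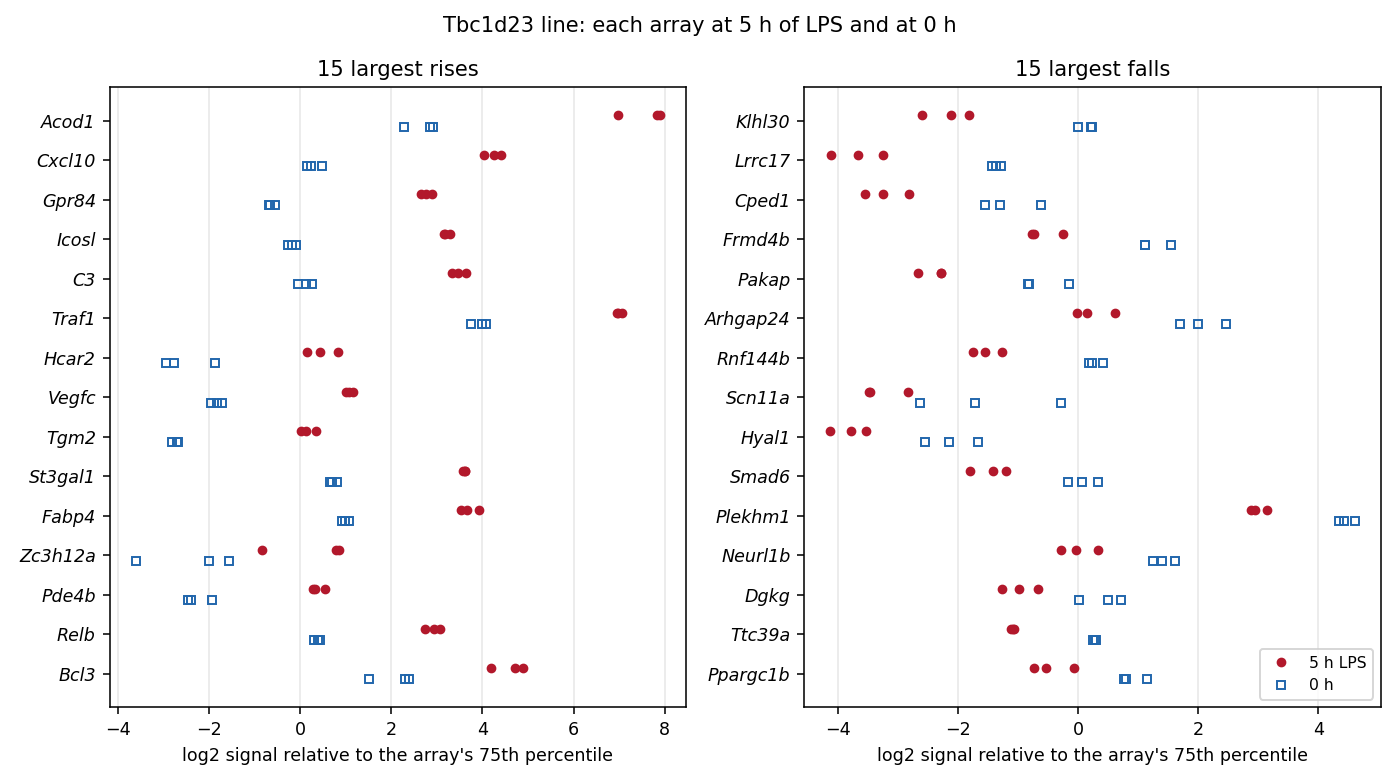
Level of each array (log2 signal relative to the array's 75th percentile) at 5 h (filled red circles) and 0 h (open blue squares) in the Tbc1d23 line, for the 15 largest rises (left) and the 15 largest falls (right) among genes above background on all 6 arrays. The groups of 3 do not overlap for any of the 30 genes, which their choice largely fixes. Acod1 reaches 7.83, 7.90 and 6.97 at 5 h, while Scn11a at 0 h spreads over -1.73, -0.29 and -2.64.

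Some genes were detected only after LPS. Il1b, the cytokine interleukin 1 beta, was well above background on all 3 arrays at 5 h (2.80, 2.87 and 2.54) and on no array at 0 h, so its rise was at least 121-fold (limma, adjusted p = 3.9e-06). Olr1, a scavenger receptor for oxidised LDL, rose at least 10.2-fold. The surface glycoprotein Tpbg rose at least 6.85-fold by the probe tested and the Wnt ligand Wnt10a at least 6.85-fold. Another Tpbg probe, above background on 2 of 3 arrays at 5 h and on 0 at 0 h, differed by 0.53 and was not called. Ifnb1 (interferon beta) rose at least 5.87-fold. The gelatinase Mmp9 was above background on no array at 0 h by the probe tested, but on 1 of 3 by its other probe, which differed by 1.66 on the log2 scale and was called. Here the 5 h mean is set against the lowest signal well above background on each 0 h array. By the probe tested, 17 of the symbols called were detected in this way at 5 h only and 0 at 0 h only.

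Cytokines and chemokines rose in part. Of 21 cytokine genes tested, 10 were called higher and 0 lower (47.6% and 0%, against 9.07% and 10.8% of all genes). Their median log2 was 0.58, against -0.03 over all genes. But 3 of the 21 were above background on no array compared, having passed the filter in other groups. With detection required at 5 h or 0 h in this line, the median was 1.17 and 11 were called higher. Tnf stood at 3.38, 3.50 and 3.65 at 5 h, against 1.30, 1.29 and 1.64 at 0 h (2.10 ± 0.06, limma, adjusted p = 1.44e-06). Its level had been higher still at 1 h (6.61, 6.54 and 6.86). The groups at 5 h and 0 h were about 2 units apart with little spread. Il6 was barely detected: it stood at -3.56, -3.96 and -3.98 at 5 h, above background on all 3 arrays, and was above it on none at 0 h, which gives a rise of at least 1.27-fold. Csf1, the macrophage growth factor, was -1.41, -1.31 and -1.18 at 5 h, against -4.05, -3.80 and -3.80 at 0 h with 2 of 3 arrays above background (2.58 ± 0.14). Csf3, the granulocyte growth factor, differed by 2.87 ± 0.46, with 1 of 3 arrays above background at 0 h. Il10, the main anti-inflammatory cytokine, differed by 0.58, Il15 by 0.30, Il18 by -0.02 and Il27 by 0.02, none of them called.

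Of 19 chemokine genes tested, 11 were called higher and 0 lower (57.9% and 0%, against 9.07% and 10.8% of all genes). Their median log2 was 0.52, or 1.25 with detection required at 5 h or 0 h in this line. Cxcl2, which attracts neutrophils, stood at 2.20, 2.00 and 1.76 at 5 h, against -3.89, -4.11 and -4.09 at 0 h with 2 of 3 arrays above background (6.02 ± 0.11, limma, adjusted p = 2.83e-07). It had stood at 4.79, 4.97 and 4.54 at 1 h. Ccl7, which attracts monocytes, differed by 3.23 ± 0.37 with 1 of 3 arrays above background at 0 h, and its other probe, above it on 2, differed by 1.21 without a call (limma, adjusted p = 0.0590). Ccl2 differed by 2.18. Chemokines for neutrophils, for monocytes and for T cells were all among the rises. Ccl5 stood at 4.49, 4.65 and 4.90 at 5 h, against 3.26, 3.55 and 3.79 at 0 h (1.15 ± 0.06). Ccl4 differed by 0.52, and Ccl3 by 0.27 without a call. Ccl12, Ccl22, Ccl24, Cxcl3 and Cxcl9 were not well above background on any of the 6 arrays.

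The NF-kB system was the most completely raised of the lists. Of 19 tested subunits and targets, 17 were called higher and 0 lower (89.5% and 0%, against 9.07% and 10.8% of all genes). Their median log2 was 1.80. All 19 were well above background on all 6 arrays. The count was 17 with median scaling, with quantile normalization and without the slide as a block. Subunits differed by 1.33 (Nfkb1), 2.19 (Nfkb2) and 2.54 (Relb), while Rela differed by 0.21 and was not called. The inhibitors that hold NF-kB in the cytoplasm rose too. Nfkbia (IkB alpha) stood at 6.89, 6.93 and 6.66 at 5 h, against 5.45, 5.35 and 5.42 at 0 h (1.41 ± 0.10, limma, adjusted p = 7.04e-05). Nfkbib differed by 1.34 and Nfkbie by 2.00. Cd83, a surface marker of activated antigen-presenting cells, stood at 3.86, 4.09 and 3.80 at 5 h, against 1.42, 1.54 and 1.47 at 0 h (2.44 ± 0.08). Tnfaip3 (A20), a ubiquitin-editing inhibitor of NF-kB signalling, stood at -1.02, -0.75 and -0.90 at 5 h, against -2.42, -2.54 and -2.03 at 0 h (1.44 ± 0.11).

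Tnfaip3 was far higher at 1 h, at 4.63, 4.89 and 5.03, and stood at 0.74, 0.89 and 1.07 at 3 h. All 3 arrays at each time followed that order. Cflar, an inhibitor of caspase 8, differed by 0.25 and was not called.

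Genes that damp TLR and cytokine signalling moved both ways: 9 of 19 were called higher and 3 lower (median log2 0.39). These are 47.4% and 15.8%, against 9.07% and 10.8% of all genes. Cish stood at 0.16, 0.08 and -0.78 at 5 h, against -3.12, -4.44 and -4.13 at 0 h with 1 of 3 arrays above background (3.72 ± 0.29). Socs3, which blocks gp130 receptors, stood at 5.49, 5.48 and 5.63 at 5 h, against 3.48, 3.73 and 3.79 at 0 h (1.87 ± 0.07, limma, adjusted p = 3.63e-06). Zc3h12c differed by 1.29 ± 0.07. The 5 h levels of Socs3 and Zc3h12c lay above all 0 h levels. Zfp36, which destabilises Tnf mRNA, differed by 0.96. The members called lower were Zfp36l1 (-0.54), the TLR inhibitor Sigirr (-0.40) and the lipid phosphatase Inpp5d (-0.53). Irak3, a kinase-like TLR inhibitor, differed by -0.51 and was not called.

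Immediate early genes, which encode mostly transcription factors, rose first and had come down in part by 5 h. At 1 h 22 of 25 were called higher, where 1.58% of all genes were called higher and 4.68% lower, and their median log2 was 2.30. At 3 h 21 were called higher (10.3% of all genes were higher and 10.8% lower). At 5 h 17 were higher and 3 lower (9.07% and 10.8% of all genes), with a median of 0.76. The contrasts share the 0 h arrays. Egr1 stood at -0.78, -0.57 and -1.13 at 0 h, 6.40, 6.60 and 5.66 at 1 h, 2.29, 2.35 and 1.70 at 3 h and -0.79, -0.68 and -1.58 at 5 h. Its 5 h and 0 h arrays overlapped (-0.19 ± 0.09, limma, adjusted p = 0.199), and with median scaling the log2 difference was 0.07. Atf3, a repressor of inflammatory genes, stood at -1.20, -1.03 and -1.06 at 5 h, below the -0.42, -0.50 and -0.38 at 0 h (-0.66 ± 0.07), after 2.38, 2.24 and 2.36 at 1 h.

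Other members stayed up. Myc stood at -0.60, -0.63 and -0.16 at 5 h, against -3.94, -4.33 and -3.85 at 0 h with 2 of 3 arrays above background (3.58 ± 0.18). Other Myc probes differed by 2.27, which was called, and by 0.78, which was not. Phlda1 differed by 2.15 ± 0.07, Egr2 by 2.06 ± 0.08 and Gadd45b by 1.97 ± 0.08. Fos, a subunit of AP-1, differed by 1.68, whereas its partner Jun differed by -1.0 and was called lower. Klf6 was the remaining member called lower (-0.53).

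**Figure D2:**
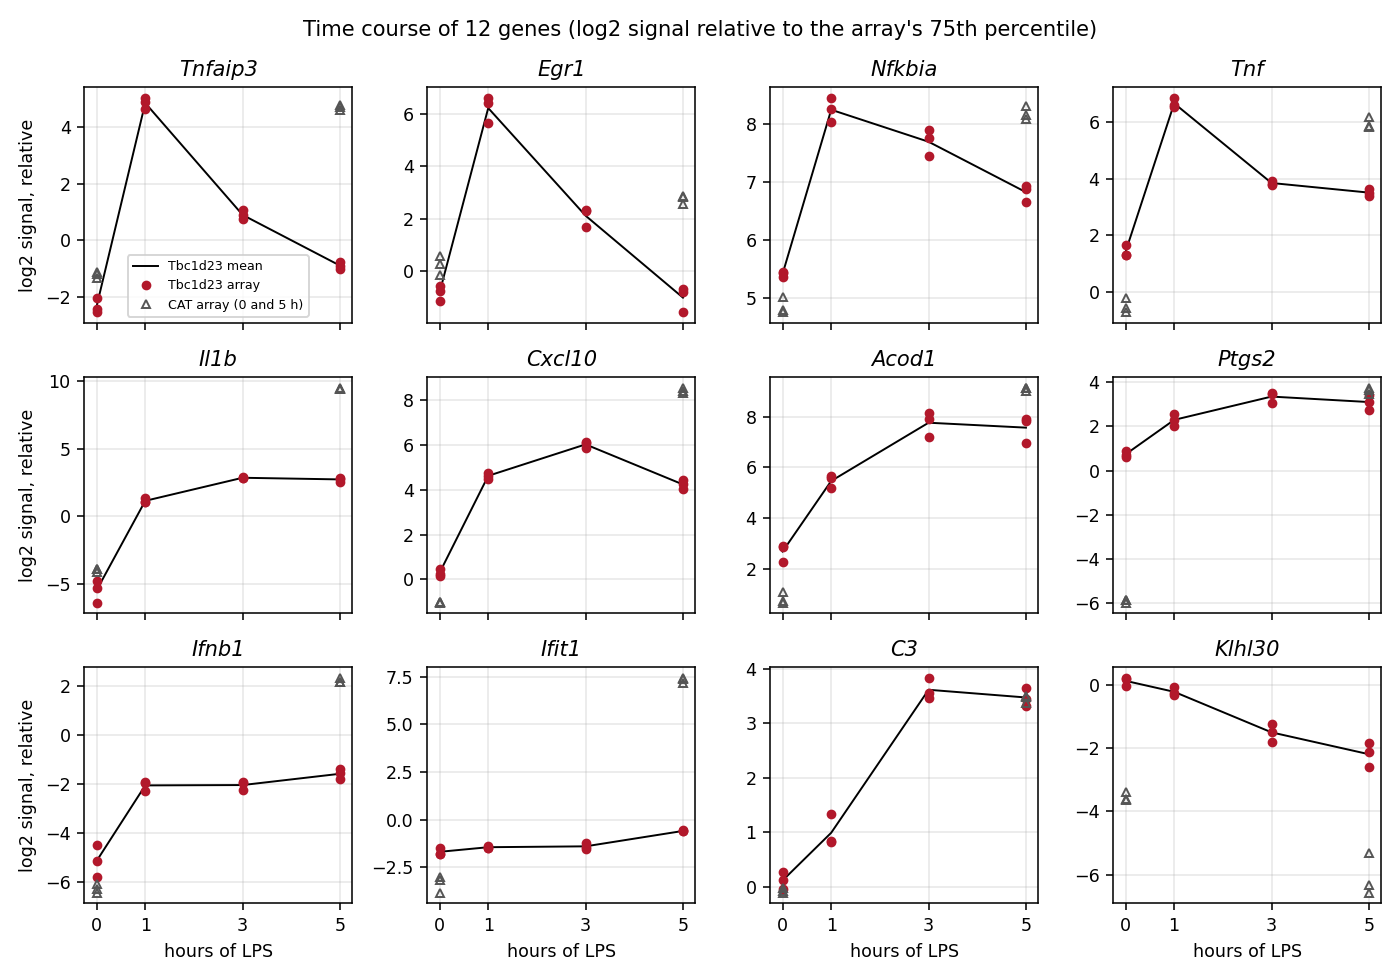
Level of each array (log2 signal relative to the array's 75th percentile) against hours of LPS for 12 genes, with the Tbc1d23 line as red circles joined through their mean and the CAT line at 0 and 5 h as open triangles. Tnfaip3 and Egr1 peak at 1 h, Cxcl10 at 3 h, and Klhl30 declines to -1.83, -2.61 and -2.12 at 5 h. Ifit1 stays between -1.78 and -0.56 in the Tbc1d23 line, while the CAT line at 5 h reaches 7.15, 7.39 and 7.43.

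Interferon-stimulated genes showed no shared rise. Of 48 tested, 13 were called higher and 13 lower (27.1% each, against 9.07% and 10.8% of all genes), with a median log2 of -0.17. With median scaling 9 were called higher and 2 lower, and the median was 0.09. Rsad2 (viperin), an antiviral enzyme, stood at -1.47, -1.08 and -1.39 at 5 h, against -2.88, -3.07 and -3.77 at 0 h (1.93 ± 0.16, limma, adjusted p = 0.000203). Ifit1, which binds viral RNA, stood at -0.60, -0.56 and -0.61 at 5 h, against -1.78, -1.50 and -1.78 at 0 h (1.1 ± 0.09). Isg15, a ubiquitin-like modifier, stood at 0.42, 0.50 and 0.10 at 5 h, against -0.45, -0.43 and -0.54 at 0 h (0.81 ± 0.06). For these 3 genes every 5 h array was above every 0 h array. The guanylate-binding protein Gbp3 differed by 1.86 ± 0.09 and Ifit3 by 1.28 ± 0.15.

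The members called lower included Usp18, which removes ISG15 and damps the interferon receptor. It stood at 2.07, 2.38 and 2.39 at 5 h, against 3.01, 3.07 and 3.24 at 0 h (-0.83 ± 0.06, limma, adjusted p = 0.000102). The immunity-related GTPase Ifi47 differed by -0.75 ± 0.07, the transcription factors Irf1 by -0.48 and Stat2 by -0.46, and the RNA editor Adar by -0.33. Mx1 was called lower (-2.28 ± 0.40), but it was not well above background on any array at 5 h and only on 1 at 0 h, so this difference rests on signals mostly below background. The interferon regulatory factors Irf7 (-0.03) and Irf9 (-0.06) were not called. Of 48 members, 6 had been called higher and 2 lower at 1 h, where 1.58% of all genes were higher and 4.68% lower. At 3 h 10 were higher and 12 lower, where 10.3% and 10.8% of all genes were.

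Among inflammatory mediators and enzymes 14 of 26 were called higher and 2 lower (53.8% and 7.69%, against 9.07% and 10.8% of all genes). Their median log2 was 0.53, with 6 of the 26 above background on no array compared. With detection required at 5 h or 0 h in this line, it was 1.76. Ptgs2 (cyclooxygenase 2), which makes prostaglandins, stood at 3.42, 3.13 and 2.76 at 5 h, against 0.72, 0.87 and 0.62 at 0 h (2.37 ± 0.11, limma, adjusted p = 9.94e-06). Hdc, which makes histamine, differed by 3.01 ± 0.14, with 1 of 3 arrays above background at 0 h. The urokinase receptor Plaur differed by 2.04, while urokinase itself, Plau, was called lower (-1.16). Nos2, the inducible nitric oxide synthase, was not well above background on any of the 6 arrays (-4.92, -5.58 and -5.38 at 5 h, against -5.28, -5.13 and -6.16 at 0 h) and was not called (limma, adjusted p = 0.519). Serpinb2, the other member called lower, was above background on 1 of 3 arrays at each time.

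Receptors and their adaptors changed less. Of 22 TLR4 pathway genes 7 were called higher and 1 lower (31.8% and 4.55%, against 9.07% and 10.8% of all genes, median log2 0.16). Tlr4 itself was the member called lower, at 2.34, 2.32 and 2.02 at 5 h, against 2.91, 3.14 and 2.56 at 0 h (-0.65 ± 0.07, limma, adjusted p = 0.000816). Its co-receptor Cd14 stood at 7.90, 8.05 and 8.37 at 5 h, against 7.41, 7.48 and 7.66 at 0 h (0.59 ± 0.05). The kinase Irak2 differed by 1.16 ± 0.12, the adaptor Myd88 by 0.29 and the kinase Ikbke by 2.69 ± 0.38, with 2 of 3 arrays above background for Ikbke at 0 h. Of 16 pattern recognition receptors 7 were called higher and 1, Tlr7 (-0.56), lower. Clec4e (Mincle), a receptor for mycobacterial glycolipids, stood at 6.40, 6.42 and 6.82 at 5 h, against 3.96, 4.10 and 4.49 at 0 h (2.36 ± 0.05). Nod2 differed by 1.27 ± 0.06, Tlr2 by 1.18 ± 0.06 and the inflammasome sensor Nlrp3 by 1.1 ± 0.17.

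The costimulatory molecules Cd40, Cd80 and Icosl rose, while most antigen presentation genes were not called. Of 17 tested, 5 were called higher and 1 lower (29.4% and 5.88%, against 9.07% and 10.8% of all genes). Cd40 stood at 1.02, 1.05 and 0.73 at 5 h, against -2.12, -3.34 and -2.97 at 0 h with 2 of 3 arrays above background (3.74 ± 0.25, limma, adjusted p = 7.04e-05). Cd80 differed by 0.69 ± 0.11 and the checkpoint ligand Cd274 (PD-L1) by 0.58 ± 0.10. Another Cd80 probe, above background on all 6 arrays, differed by 0.46 and was not called. H2-K1, a class I heavy chain, differed by 0.53, and the immunoproteasome subunit Psmb9 was called lower (-0.26). Cd86 was not well above background on any of the 6 arrays.

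The falls were smaller than the rises. The largest was that of Klhl30, a kelch-family protein, which stood at -1.83, -2.61 and -2.12 at 5 h, against 0.23, 0.21 and -0.01 at 0 h (-2.33 ± 0.15, 5.01-fold lower, limma, adjusted p = 6.45e-05). Lrrc17, a leucine-rich repeat protein, stood at -3.67, -4.13 and -3.26 at 5 h, against -1.37, -1.28 and -1.44 at 0 h (-2.32 ± 0.19). Frmd4b, a scaffold protein, stood at -0.74, -0.77 and -0.26 at 5 h, against 1.1, 1.1 and 1.55 at 0 h (-1.84 ± 0.05). In each the 5 h arrays lay below all 0 h arrays. Arhgap24, which inactivates Rac, stood at -0.02, 0.14 and 0.61 at 5 h, against 1.70, 1.99 and 2.46 at 0 h (-1.81 ± 0.06). Plekhm1, an adaptor for lysosome fusion, stood at 2.87, 3.15 and 2.94 at 5 h, against 4.34, 4.61 and 4.43 at 0 h (-1.47 ± 0.06).

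The other 10 of the 15 largest falls lay between -2.05 and -1.35. They were Cped1, Pakap, the E3 ligases Rnf144b and Neurl1b, the sodium channel Scn11a, the hyaluronidase Hyal1, the inhibitory SMAD Smad6, the diacylglycerol kinase Dgkg, Ttc39a and the coactivator Ppargc1b. Scn11a rested on uneven 0 h arrays (-1.73, -0.29 and -2.64, against -2.84, -3.49 and -3.48 at 5 h) and passed narrowly (limma, adjusted p = 0.0387). It was not called without replicate 1 (limma, adjusted p = 0.165) or without replicate 3 (limma, adjusted p = 0.115), and was -0.97 without replicate 2. Cped1 was not called without replicate 3 (limma, adjusted p = 0.0517). Of the 15, 9 had their lowest mean at 5 h and 6 at 3 h, and at 1 h the largest decrease among them was -1.26, in Scn11a, which was not called.

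Genes of DNA replication and mitosis shifted down together and by little. Of 30 tested, all well above background on the 6 arrays, 23 were called lower and 0 higher (76.7% and 0%, against 10.8% and 9.07% of all genes). Their median log2 was -0.34, against -0.03 over all genes. With median scaling, which moved all genes to a median of 0.23, the list's median was -0.08 and 0 were called. Without the slide as a block 2 were called lower, and leaving out 1 replicate left 4 to 15. The cyclin Ccne2 stood at 0.74, 0.19 and 0.63 at 5 h, against 1.21, 1.32 and 1.40 at 0 h (-0.79 ± 0.12, limma, adjusted p = 0.00323). The replication licensing factors Cdc6 stood at -0.14, 0.08 and 0.02 at 5 h, against 0.71, 0.78 and 0.56 at 0 h (-0.70 ± 0.07), and Cdt1 differed by -0.66 ± 0.08. All 3 pairs fell for each of these genes. The helicase subunits Mcm2 to Mcm7 differed by -0.48 to -0.30, with Mcm4 not called. The mitotic kinase Aurkb differed by -0.64 ± 0.08, and Ccnd2, a cyclin of early G1, differed by 0.04 and was not called.

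FOXO targets and quiescence genes also moved down, with 7 of 13 called lower and 1 higher (53.8% and 7.69%, against 10.8% and 9.07% of all genes). Their median log2 was -0.35, or -0.09 with median scaling, where 1 was called lower. Pik3ip1, an inhibitor of PI3 kinase, stood at -3.11, -2.68 and -2.73 at 5 h, against -1.49, -1.63 and -1.40 at 0 h (-1.33 ± 0.14, limma, adjusted p = 0.000526). The atypical cyclin Ccng2 differed by -0.97 ± 0.11 and Klhl24 by -0.78 ± 0.05, while Btg1, an antiproliferative protein, was the member called higher (0.71 ± 0.06). Lysosome and autophagy genes were called lower in 10 of 22 (45.5%) and higher in 0, with a median of -0.16. That median was 0.10 with median scaling, where 0 were called, and 0 were called without the slide as a block. Gla, a lysosomal galactosidase, differed by -0.47 ± 0.04, the proton pump subunit Atp6v1a by -0.46 ± 0.12 and the autophagy kinase Ulk1 by -0.30 ± 0.08.

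Stress and metabolic lists were mixed. Of 19 p53 targets 8 were called higher and 4 lower (42.1% and 21.1%, against 9.07% and 10.8% of all genes). The death receptor Fas stood at 0.07, 0.13 and 0.79 at 5 h, against -2.66, -3.10 and -2.47 at 0 h with 2 of 3 arrays above background (3.07 ± 0.11, limma, adjusted p = 3.17e-06). The cell cycle inhibitor Cdkn1a differed by 0.73 ± 0.09 and the kinase Plk2 by 0.74 ± 0.07. Gdf15, a stress cytokine, differed by -0.73 ± 0.17 with 2 of 3 arrays above background at 0 h, and it was not called in 12 of 16 other settings, where it ranged over -0.91 to -0.18. Of 18 NRF2 targets 5 were called higher and 6 lower (27.8% and 33.3%). Sqstm1 (p62), the autophagy receptor, stood at 9.32, 9.66 and 9.71 at 5 h, against 8.12, 8.43 and 8.90 at 0 h (1.08 ± 0.09). The reductase Srxn1 differed by 1.01 ± 0.06, the cystine transporter Slc7a11 by 0.56 ± 0.08 and Osgin1 by -0.81 ± 0.07.

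Of 25 genes of the unfolded protein response and of ATF4, 7 were called higher and 0 lower, with changes of at most 0.42 (Sesn2). These are 28% and 0%, against 9.07% and 10.8% of all genes. Ddit4 differed by 0.36 ± 0.05, Atf4 by 0.35 ± 0.05 and Atf5 by 0.34 ± 0.06. Without the slide as a block 0 of the 25 were called, and 0 with median scaling.

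Of 18 genes of lipid handling 4 were called higher and 4 lower (22.2% each, against 9.07% and 10.8% of all genes). The cholesterol exporter Abca1 stood at -0.33, -0.55 and -0.46 at 5 h, against -2.54, -2.75 and -2.58 at 0 h (2.17 ± 0.16, limma, adjusted p = 9.15e-05). Abcg1, the other exporter, moved the opposite way, at 4.40, 4.76 and 4.69 at 5 h, against 5.16, 5.41 and 5.26 at 0 h (-0.66 ± 0.06). Both are targets of LXR. Fabp4 stood at 3.65, 3.53 and 3.93 at 5 h, against 0.92, 0.98 and 1.07 at 0 h (2.71 ± 0.08).

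Of 24 genes of cholesterol synthesis and uptake 3 were called higher (12.5%) and 1 lower (4.17%), against 9.07% and 10.8% of all genes. Msmo1, an enzyme of cholesterol synthesis, differed by 0.24 ± 0.06. Of 21 genes of glycolysis and hypoxia 3 were called higher (14.3%) and 1 lower (4.76%). The glucose transporter Slc2a1 differed by 0.53 ± 0.05, the regulators Pfkfb3 by 0.25 ± 0.06 and Pfkfb4 by 0.25 ± 0.06, and hexokinase Hk1 by -0.21 ± 0.06. Pfkfb3 was at -0.22 with the mean of its probes, and Hk1 at 0.05 with median scaling, neither called. Of 22 subunits of oxidative phosphorylation 0 were called by limma, and their median was -0.03, as over all genes. With median scaling 2 interferon-stimulated genes, 1 mediator, 1 FOXO gene and 1 B cell marker were called lower, and 0 members of the other lists, the Jun, Atf3, Tlr4 and replication calls included.

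**Figure D3:**
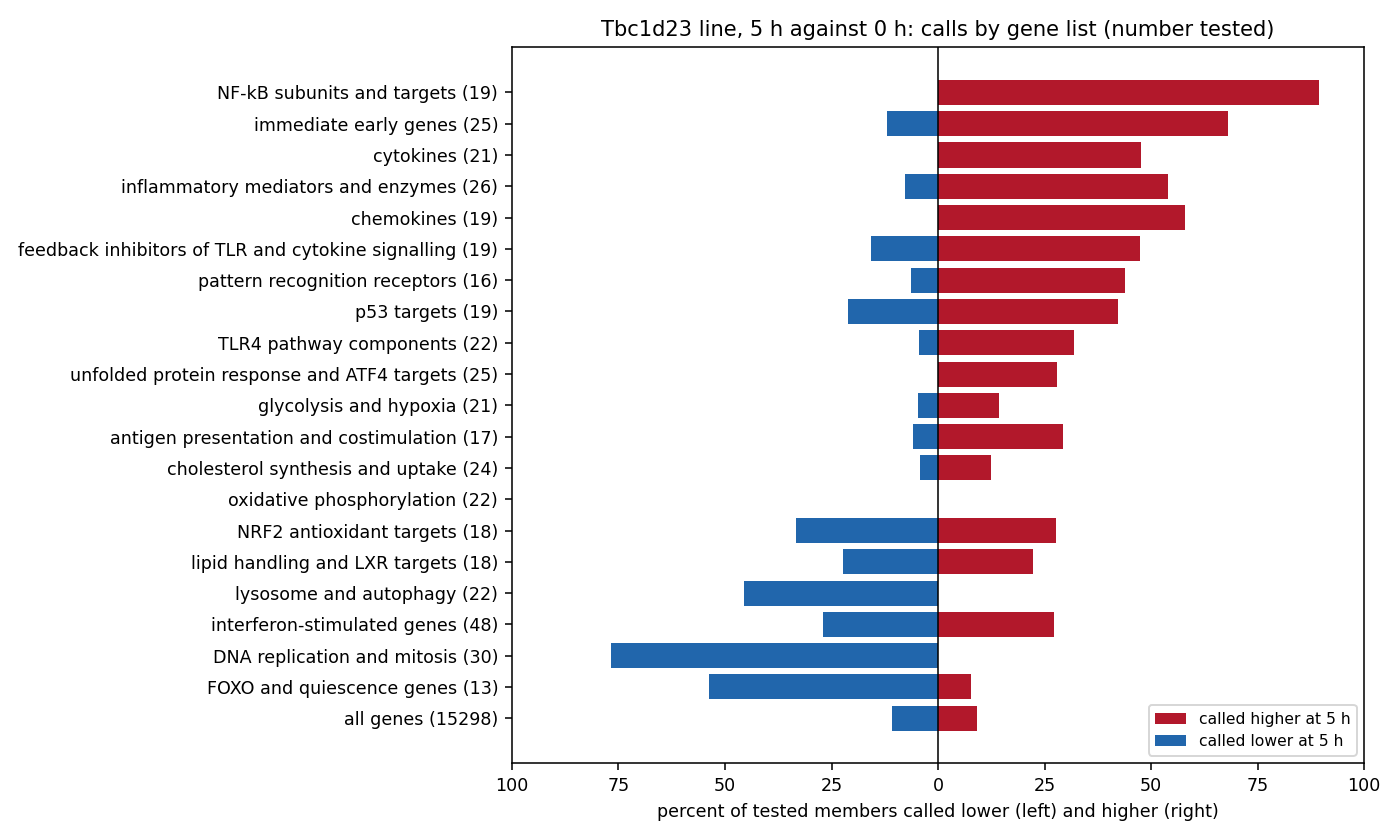
Percent of the tested members of each gene list called higher (right, red) and lower (left, blue) at 5 h against 0 h in the Tbc1d23 line, with the number tested in brackets and all 15298 genes in the bottom row. Bars start at 0. NF-kB subunits and targets reach 89.5% higher, DNA replication and mitosis 76.7% lower (0 genes with median scaling), and interferon-stimulated genes 27.1% each way, against 9.07% higher and 10.8% lower over all genes.

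Markers of the cells themselves moved in both directions. Of 24 macrophage markers 6 were called higher and 4 lower (25% and 16.7%, against 9.07% and 10.8% of all genes). The summed linear level of the list was 1310 to 1716 at 5 h, against 1216 to 1527 at 0 h. Adgre1 (F4/80) stood at 4.83, 4.98 and 5.22 at 5 h, against 3.30, 3.60 and 3.81 at 0 h (1.44 ± 0.05, limma, adjusted p = 2.3e-06). Of the Fc receptors, the inhibitory Fcgr2b stood at -0.02, -0.22 and 0.17 at 5 h, against -1.25, -1.26 and -1.23 at 0 h (1.22 ± 0.10), and the activating Fcgr3 at -0.11, -0.23 and -0.14 at 5 h, against 0.81, 0.78 and 0.75 at 0 h (-0.94 ± 0.05). Fcgr3 rests on its brightest probe: another, above background on all 6 arrays, differed by 0.18 and was not called, and the mean of both differed by -0.38. Spi1 (PU.1) differed by 0.72 ± 0.13.

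The other marker lists are short, so a share in them rests on few genes, and over all genes 9.07% were called higher and 10.8% lower. Of 10 osteoclast markers 3 were called higher (30%) and 0 lower: Mmp9, Ocstamp (1.67 ± 0.06) and Dcstamp (0.77 ± 0.05). The sum of the osteoclast list was 106 to 136 at 5 h, against 97.9 to 142 at 0 h. Calcr was not tested, Atp6v0d2 was not well above background on any of the 6 arrays and Ctsk was so on 1 at each time. Of 5 dendritic cell markers only Itgax (20% of the list) was called higher (1.33 ± 0.11). Another Itgax probe, above background on 3 arrays at 5 h and 2 at 0 h, differed by 0.52 and was not called. The list's sum was 0.926 to 1.20 at 5 h, against 0.507 to 0.940 at 0 h, and Clec9a, Ccr7, Siglech and Cd209a were not tested. Of 4 T and NK cell markers Lck (0.60 ± 0.07) and Cd5 (0.34 ± 0.06) were called higher (50%). The sum of that list was 3.77 to 3.98 at 5 h, against 2.89 to 3.20 at 0 h. Cd3d, Cd3g, Cd8a and the NK markers were not tested, being too dim in every group. Of 3 B cell markers Cd79b (33.3% of the list) was called lower (-1.41 ± 0.34) at signals mostly below background. The sum of that list was 0.832 to 1.30 at 5 h, against 0.837 to 1.52 at 0 h. None of the 6 granulocyte, mast and erythroid markers and none of the 4 fibroblast and epithelial markers was called by limma. The part of other cells in these differences was not tested.

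Set beside the CAT line, the Tbc1d23 line changed less in the genes it raised: among 229 called and at least 2-fold higher in it, the median log2 was 1.59 in the Tbc1d23 line and 3.32 in CAT. The CAT change was the larger in 12 of the 15 largest rises and 11 of the 15 largest falls. Of these falls, Klhl30, Lrrc17, Arhgap24, Rnf144b, Hyal1 and Dgkg were above background on no CAT array at 5 h, so their CAT folds are bounds. For Klhl30 the bound was 1.95-fold, below its 5.01-fold fall in the Tbc1d23 line. The other bounds, 8.15-fold (Hyal1) to 34.7-fold (Lrrc17), lay above the falls in the Tbc1d23 line. In the CAT line 8691 of the same 15298 genes were called at 5 h. The lines share no arrays. Across the 15298 genes the 2 responses had a Pearson correlation of 0.48 and a Spearman correlation of 0.45. Genes are not independent replicates, and the arrays of each line share their slides. Of those 229 genes, 212 were called higher in the CAT line too (92.6%, where 26.7% of all genes were called higher in CAT). Of 127 at least 2-fold lower, with a median of -1.29 in the Tbc1d23 line and -1.45 in CAT, 79 were called lower in CAT (62.2%, against 30.1% of all genes) and 19 were called higher.

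Read from the other side, 665 genes were raised at least 4-fold in the CAT line, and 296 of them (44.5%) were called higher in the Tbc1d23 line, where 9.07% of all genes were. Their median log2 was 0.33 in the Tbc1d23 line and 3.23 in the CAT line, where the choice of genes fixes it. In the Tbc1d23 line 41 of the 665 were called lower. At 5 h 508 of the 665 were well above background on all 3 Tbc1d23 arrays. The share and the median include the rest, which may have passed the filter only in other groups. Of 421 genes lowered at least 4-fold in CAT, 298 (70.8%) were called lower in the Tbc1d23 line, where 10.8% of all genes were. The median of the 421 was -0.60 in the Tbc1d23 line, against -2.50 in CAT. In the Tbc1d23 line 7 of the 421 were called higher, and 372 were well above background on all 3 arrays at 5 h.

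The difference of the 2 responses was tested in a fit of all 24 arrays with the slide as a block. Of 15298 genes, 3245 (21.2%) had a more positive response in the Tbc1d23 line and 2840 (18.6%) a more negative one. With replicate 3 of the Tbc1d23 line alone, the slide run it shares with CAT, 3697 were called in all. That fit has 1 array of the Tbc1d23 line at each time and takes their spread from the CAT slides. Of the 10 most negative differences among genes above background on all 12 arrays of 5 h and 0 h, that of Ifit1 was the largest in size. Ifit1 responded by 1.1 in the Tbc1d23 line and 10.66 in the CAT line, a difference of -9.57 ± 0.24 (limma, adjusted p = 1.11e-12). Isg15 responded by 0.81 and 8.02 in the same order, a difference of -7.21 ± 0.17. In the whole list 46 of 48 had a more negative response in the Tbc1d23 line and 1 a more positive one. The CAT line's median for this list was 4.65, against -0.17 in the Tbc1d23 line.

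Part of these differences lay at 0 h. Ptgs2 stood at 3.42, 3.13 and 2.76 in the Tbc1d23 line at 5 h, against 0.72, 0.87 and 0.62 at 0 h, and at 3.46, 3.65 and 3.74 in the CAT line at 5 h, against -5.97, -5.88 and -5.86 at 0 h, where no array was well above background. The 5 h levels of the lines were close, while the 0 h level was far higher in the Tbc1d23 line, and the response difference was -7.15 ± 0.13. Klhl30 too began higher in the Tbc1d23 line: in the CAT line it stood at -3.60, -3.64 and -3.38 at 0 h. At 5 h it stood there at -6.33, -5.30 and -6.57, with no array well above background. Ifit1 at 0 h was at -1.78, -1.50 and -1.78 in the Tbc1d23 line and -3.02, -3.83 and -3.16 in CAT. The lines lie on different slides, so in a level compared between lines, line and slide cannot be told apart.

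Other lists differed by degree. For NF-kB subunits and targets the median was 1.80 in the Tbc1d23 line and 2.87 in CAT, and 16 of 19 members had a more negative response in the Tbc1d23 line. For cytokines the medians were 0.58 and 6.02 in the same order, and 20 of 21 were more negative. These cytokines include 3 above background on no Tbc1d23 array at 5 or 0 h. With detection required at 5 h or 0 h in the Tbc1d23 line, its median was 1.17. For DNA replication and mitosis they were -0.34 and -1.14, and 24 of 30 had a more positive response, that is a smaller decrease, in the Tbc1d23 line.

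Among the largest rises 2 had a more positive response in the Tbc1d23 line. Icosl responded by 3.39 in the Tbc1d23 line and 2.28 in CAT, a difference of 1.11 ± 0.23 (limma, adjusted p = 0.00156). Fabp4 responded by 2.71 and 2.11, a difference of 0.60 ± 0.14 (limma, adjusted p = 0.00306). For C3 the difference was -0.17 ± 0.14, for Tgm2 -0.21 ± 0.12, for St3gal1 0.23 ± 0.12 and for Cd83 -0.06 ± 0.10, none of them called. The genes were chosen for a large rise in the Tbc1d23 line, so these differences are not free of that choice. Adgre1 too had a more positive response in the Tbc1d23 line, 1.44 against 0.42 (1.02 ± 0.21, limma, adjusted p = 0.0014).

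Among genes above background on all 12 arrays the most positive difference was that of Bmf, a pro-apoptotic BCL2 family protein. It stood at 2.69, 3.13 and 3.30 in the Tbc1d23 line at 5 h, against 1.66, 1.97 and 2.18 at 0 h, and at -1.13, -1.0 and -1.05 in the CAT line at 5 h, against 3.01, 3.54 and 3.52 at 0 h. It rose in one line and fell in the other, a difference of 5.52 ± 0.18 (limma, adjusted p = 1.03e-11). The size of the rise rests on its brightest probe. Another Bmf probe, above background on all 6 arrays of the Tbc1d23 line, differed there by 0.20 ± 0.15 and was not called. Over 17 other settings the change of Bmf in that line ranged over 0.66 to 1.36 and stayed called. Ranbp3l fell in both, by 0.73 in the Tbc1d23 line and 5.04 in CAT. Sesn1, a p53 target, was not called in the Tbc1d23 line (0.01) and fell by 3.84 in CAT. Pakap, among the largest falls in the Tbc1d23 line (-1.81), was higher at 5 h in CAT (1.60), a difference of -3.41 ± 0.33.

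**Figure D4:**
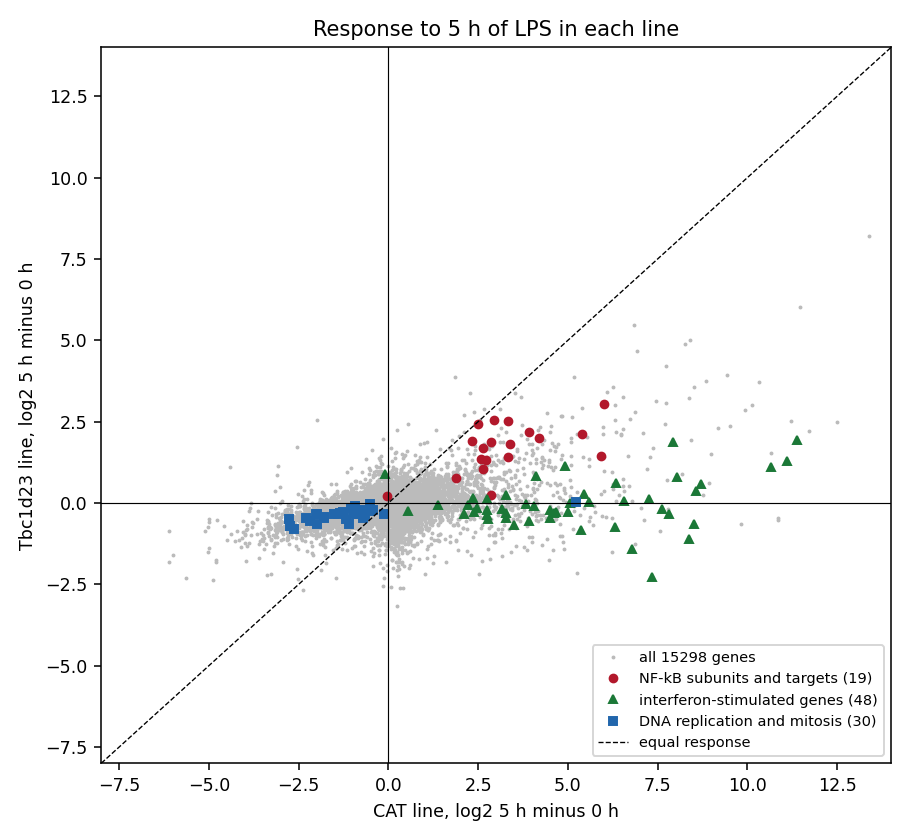
Response to 5 h of LPS (log2, 5 h minus 0 h) in the Tbc1d23 line (vertical axis) against the CAT line (horizontal axis), 1 point per gene for 15298 genes, with 3 gene lists in colour and the dashed line where both responses are equal. NF-kB genes lie near or below the dashed line with a median of 1.80 in the Tbc1d23 line. Interferon-stimulated genes lie near 0 on the vertical axis (median -0.17) and far to the right (CAT median 4.65).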

How the data were processed

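One-colour Cy3 Agilent mouse arrays were quantified by the authors with Feature Extraction (version 10.7.1.1 per the file headers), and the deposited intensity of a spot is its background-subtracted processed signal, with low values replaced by a surrogate. The deposited log2 values of the series matrix have the same quartiles in every column and were used as an alternative; RMA and Partek stand in the submitters' processing notes with no role given. Each array's log2 processed signal minus its log2 75th percentile was computed here, control spots and outlier spots were left out, and spots of a probe were averaged. Of 41174 probes 21960 were detected in every replicate of 1 or more groups and kept. The probe with the highest mean stood for each of 15298 gene names, and 25097 probes were named through RefSeq accessions.

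limma 3.58.1 (R 4.3.3, with data.table, version 1.17.8) was fitted to the 12 arrays of the Tbc1d23 line with the replicate number, which is the slide, as a block, and Benjamini-Hochberg adjusted p-values under 0.05 over all gene names were called. Errors after ± are standard errors. Same-numbered 5 h and 0 h arrays deviated together from their group means (correlations of 0.64, 0.62 and 0.73), and differently numbered ones did not (-0.54 to -0.16). No source used here says whether the replicates were separate cultures, so the p-values reflect only the spread between these samples, which may be technical. The response difference was fitted over 24 arrays. The fit of the 12 arrays was tested on simulated data for the 5 h against 0 h contrast, and the fit of 24 arrays was not.

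Genes named are Tbc1d23, the 15 largest rises and falls called, above background on all 6 arrays and moving one way in all 3 pairs, up to 6 genes detected at 5 h only, up to 4 called members per list, 15 canonical LPS genes and the 10 largest response differences each way. Some genes the rule picks are not reported here. Other list members named beside them were chosen after their values were seen. The members and lists were chosen with earlier results of these data known. Where a gene was not well above background at 0 h, its fold is a bound: the 5 h mean over the 0 h mean of, per array, the dimmest detected signal or the probe's own signal, whichever was greater. The number of arrays limits the precision.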

Additional observations from a re-analysis of the deposited data

Results flagged for a closer look

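Between the Tbc1d23 and CAT lines the change at 5 h against 0 h differed in 6085 of 15298 genes (limma over 24 arrays with the slide as a block, adjusted p under 0.05). The differences below are Tbc1d23 minus CAT on the log2 scale, and each was called in that fit. Chance was not tested in any other way.

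The interferon-related genes had the more negative response in the Tbc1d23 line. The difference was -9.57 for Ifit1, -8.21 for the exonuclease Isg20, -8.12 for the nucleic acid sensor Zbp1, -7.80 for the mitochondrial kinase Cmpk2 and -7.21 for Isg15. It was -7.16 for Oasl2, -7.05 for Ifi47, -6.20 for Usp18, -6.28 for Apol9b and -6.20 for Apol9a. Interferon beta itself, Ifnb1, differed by -4.94, and it was not above background on any 0 h array of either line, so this size is not a measured fold.

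Among cytokines and enzymes the difference was -9.51 for Il6, -5.18 for Il1b, -4.38 for Tnf, -7.15 for Ptgs2 and -3.37 for Acod1. Il6 was not above background on any 0 h array of either line, Il1b on none of the Tbc1d23 line at 0 h and Ptgs2 on none of the CAT line at 0 h, so these 3 sizes rest on signals below background. The chemokines Cxcl10 and Ccl5 differed by -5.48 and -4.44. Nos2 differed by -3.74, with no array of the Tbc1d23 line at 5 or 0 h and none of the CAT line at 0 h above background, so this size too is not a measured fold. The regulators Tnfaip3, Nfkbia, Egr1 and Atf3 differed by -4.47, -1.92, -2.71 and -2.05.

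Among genes above background on all 12 arrays of 5 h and 0 h, the 10 largest differences in the other direction were 5.52 for Bmf, 4.31 for Ranbp3l, 3.85 for Sesn1, 3.64 for Fam131a and 3.38 for Neurl3. They also held Amz1 (3.35), Mtss1 (3.26), Rasgrp3 (3.17), Slc26a11 (3.15) and Kbtbd11 (3.15). In the CAT line these 10 genes changed by -5.04 to -3.63 on the log2 scale.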

How the results depend on the processing

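With the replicate block 3038 genes were called (1387 higher, 1651 lower, 356 at least 2-fold), and with no replicate block 681 were (334 higher, 347 lower). Fitting only the 6 arrays gave 476 (270 higher, 206 lower), and fitting all 24 with no replicate block gave 970 (462 higher, 508 lower). Median scaling gave 554, of which 472 were higher and 82 lower (85.2% higher, against 45.7%). With no filter 796 were higher (32.7% of the calls), and the genes called and at least 2-fold numbered 936 with no filter, 162 with normexp background correction and 226 when all 6 arrays had to be above background. Leaving out 1 replicate gave 924 to 1827 calls, 440 to 887 higher and 484 to 940 lower, with 292 to 310 at least 2-fold; the lowest total, 924, was without replicate 3, and 972 were called without replicate 1 and 1827 without replicate 2. The response difference to CAT, 6085 genes, was called in 3554 with no replicate block, in 3738 to 5551 with 1 replicate left out, and in 3697 within the slide run that holds both lines, an alternative chosen after seeing the data, with 1 array of the Tbc1d23 line at each time. With median scaling 73.4% of these calls were more positive in the Tbc1d23 line, and with no filter 39.3%. Other settings kept these counts within 1.5 times.

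Of 135 named differences 69 had no lost call and no reversed direction under any setting run. A gained call, as for Slc26a11 in 1 setting, was not counted as a change. Of the 15 largest rises 13 lost no call, the exceptions being Tgm2 and Zc3h12a, and of the 15 largest falls 13, the exceptions being Cped1 and Scn11a. Reversed values were those of Sesn1 with quantile normalization (-0.0014), with the deposited values (-0.0049) and without replicate 3 (-0.067, in a range of -0.067 to 0.11 over the replicates left out), and with median scaling those of Tbc1d23 (0.12), Hk1 (0.048), Egr1 (0.068), Fam131a (0.0017), Neurl3 (0.0068) and Cmpk2 (0.077). With the mean of probes Pfkfb3 (-0.22) and Neurl3 (0.18) reversed, as did Apol9b without replicate 1 (-0.0063, range to 0.14) and Nos2 without replicate 3 (-0.046, range to 0.57). The cause was not tested. Dim probes are the limit on the genes detected at 5 h only, where just a bound could be given.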
